A study of Rattus norvegicus with 325 samples.

Results

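The comparison set the old diaphragm against the old soleus. It took the 12 libraries labelled as diaphragm at 27 months and the 12 labelled as soleus at 27 months, 24 of the 325 libraries of the series, and all 24 were used. The series holds RNA sequencing libraries of whole muscle from 4 skeletal muscles of the rat at 7 ages from 6 to 27 months. Both groups came from 27 months old males of Sprague Dawley, a rat stock that is not inbred, the labels name no treatment, and the groups differed by muscle. Libraries were numbered from 0 to 11 within each group, no label ties a library to a rat, and the running numbers of the 12 diaphragm libraries come directly before those of the 12 soleus libraries, so that muscle and position in that order cannot be told apart.

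The diaphragm is the main muscle of breathing and contracts throughout life, while the soleus is a postural muscle of the hind limb. Skeletal muscle fibers are slow or fast according to the myosin heavy chain and the thin filament, calcium and energy proteins that go with it; in the rat the soleus is built mainly from slow, oxidative fibers and the diaphragm from a mixture of slow and fast ones. Muscles also keep, into adult life, traces of the position along the body at which they formed, in the form of homeobox (Hox) and T-box transcription factors. Loss of contact between nerve and muscle, a feature of old muscle, is known to raise the transcripts of acetylcholine receptor subunits, of the adhesion molecule Ncam1 and of the developmental myosin Myh3.

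Counts per library, in units of 1 M (10 to the power of 6), were 21.7 M to 55.6 M in the diaphragm (median 36.9 M) and 21.4 M to 37.6 M in the soleus (median 30.3 M), a difference in means of 6.43 M with a two-sided permutation p of 0.0631 over 100000 resamples. Levels are given below as CPM, the counts of a gene relative to the library total after TMM scaling, and differences as diaphragm minus soleus on the log2 scale with the standard error (SE) of the limma-voom fit, so a positive difference means a higher level in the diaphragm. To be called, a gene needed a difference of more than 1.5-fold and an adjusted p (Benjamini-Hochberg, over all genes tested) below 0.05. Of 11692 genes tested, 3058 (26.2%) were called, 1606 (13.7%) higher in the diaphragm and 1452 (12.4%) higher in the soleus. The 12 libraries of one muscle lay entirely above the 12 of the other for 1679 genes (14.4%), of which 959 (8.20%) were higher in the diaphragm and 720 (6.16%) in the soleus. Differences of more than 2-fold were called for 748 (6.40%) and 618 (5.29%) genes, of more than 4-fold for 194 (1.66%) and 159 (1.36%), and of more than 16-fold for 41 (0.351%) and 24 (0.205%). Over all genes the median difference was -0.03 and the median SE 0.09. Of 8 genes measured that define skeletal muscle, 3 were higher in the diaphragm and 1 in the soleus, and their summed level was 61130 to 79250 CPM and 35410 to 71110 CPM. With scaling by total counts in place of TMM all differences moved by -0.10 in the median, and the share of calls that were higher in the diaphragm fell from 52.5% to 40.9%, with 1314 genes higher in the diaphragm at 27 months and 1897 genes higher in the soleus at 27 months. In whole muscle, a smaller number of cells of a type and less RNA per cell cannot be told apart.

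The fiber type genes set the muscles apart most plainly. Of 16 fast fiber genes measured, 15 were higher in the diaphragm and none was called higher in the soleus, with a median difference of 3.52, beside 13.7% of all genes called higher in the diaphragm. Myh1, which encodes the fast IIx myosin heavy chain, ranged from 19590 to 35080 CPM in the diaphragm (median 24580) and from 61.1 to 2888 CPM in the soleus (median 981). No library of one muscle reached the range of the other, and the difference was 5.29 (SE 0.53, adjusted p = 2.66e-09 by limma-voom), which is 39.1-fold. Myh4, the IIb myosin of the fastest fibers, lay between 1213 and 10980 CPM in the diaphragm (median 6041) and between 23.8 and 369 CPM in the soleus (median 116), a difference of 5.43 (SE 0.48, adjusted p = 2.17e-10). Myh2, the IIa myosin of fast oxidative fibers, had medians of 14510 and 673 CPM and a difference of 4.48 (SE 0.53, adjusted p = 4.11e-08), again without overlap. Within the soleus these myosins varied widely: Myh2 ran from 55.1 to 2898 CPM, while in the diaphragm it ran from 11570 to 16980 CPM.

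The fast thin filament and fast accessory genes followed. Mybpc2, the fast form of myosin binding protein C, was at 1264 to 2531 CPM in the diaphragm (median 2119) and at 2.16 to 33.8 CPM in the soleus (median 10.6), with a difference of 7.69 (SE 0.36, adjusted p = 1.12e-15), the greatest of the list. Tnni2, fast troponin I, ran from 845 to 1169 CPM against 4.39 to 126 CPM, a difference of 4.68 (SE 0.43, adjusted p = 4.61e-10). Actn3, the alpha-actinin of fast fibers, ran from 1771 to 4659 CPM against 16.9 to 330 CPM, a difference of 4.92 (SE 0.34, adjusted p = 2.84e-12). For each of these 3 genes all 12 diaphragm libraries lay above all 12 soleus libraries. The 1 fast fiber gene that was not called was Myl1, the fast essential light chain, at -0.56. In 6 of the 24 fits that left out a single library, and without soleus 8 and 9 together, 1 gene of the list was called higher in the soleus.

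The slow fiber genes differed far less. Of 16 measured, 7 were higher in the soleus and 1 in the diaphragm, beside 12.4% and 13.7% of all genes, with a median difference of -0.45. Myh7, the slow myosin heavy chain, ranged from 20430 to 30260 CPM in the diaphragm (median 24330) and from 21090 to 64890 CPM in the soleus (median 36060). The ranges overlapped, and the difference of -0.55 (SE 0.13, adjusted p = 4.68e-04) stayed under 1.5-fold and was not called. It passed that fold in edgeR (-0.60) and with total-count scaling (-0.65), and without soleus 0 (-0.61) or soleus 8 (-0.61). Tnni1, slow troponin I, was 261 to 370 CPM in the diaphragm and 465 to 842 CPM in the soleus, without overlap, a difference of -1.06 (SE 0.08, adjusted p = 5.30e-12). Tnnt1, Tnnc1, Myl3 and Myoz2, further slow fiber genes, were higher in the soleus with differences from -0.62 to -0.86.

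Both large differences of the slow list were in genes of muscle stretch signaling. Ankrd2, an ankyrin repeat protein of the sarcomere that responds to stretch, was at 2.16 to 9.82 CPM in the diaphragm (median 3.79) and at 15.0 to 383 CPM in the soleus (median 252), a difference of -5.64 (SE 0.50, adjusted p = 2.90e-10) or 49.8-fold. Csrp3, the muscle LIM protein of the Z disc, was at 3.02 to 82.2 CPM against 132 to 776 CPM, a difference of -4.47 (SE 0.40, adjusted p = 3.47e-10). The lowest soleus library lay above the highest diaphragm library for both genes. Pln, phospholamban, the inhibitor of the slow calcium pump, was the 1 member of the list that was higher in the diaphragm (1.15, SE 0.19, adjusted p = 7.96e-06, with overlapping ranges).

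**Figure D1:**
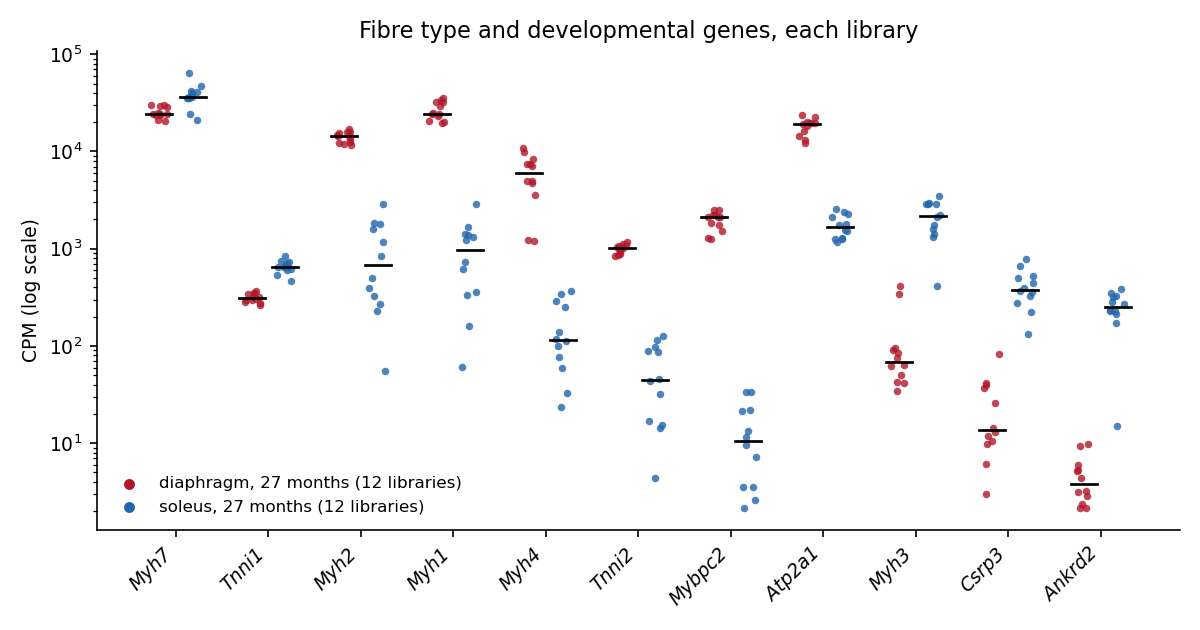
CPM on a log scale of 11 fiber type, developmental and stretch genes, with 1 point for each of the 12 libraries of the diaphragm (red) and of the soleus (blue) at 27 months and a bar at the median. Fast genes such as Myh1, Myh4 and Mybpc2 do not overlap, Myh7 does, and Myh3, Csrp3 and Ankrd2 lie higher in the soleus.

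Promoter sequences are shown for Myh4, Myh1 and Mybpc2, because these fast genes moved together, and for Ankrd2, which moved the other way. Each is the stretch of 150 bases directly before the start of the gene as given by RefSeq on the GRCr8 build, on the strand of the gene. The capitals mark CANNTG (the E-box letters), CATTCC (the MCAT letters) and TATAAA, searched on both strands. No matches of different motifs overlapped in these windows.
Myh4, chr10:52421998-52422147, plus strand: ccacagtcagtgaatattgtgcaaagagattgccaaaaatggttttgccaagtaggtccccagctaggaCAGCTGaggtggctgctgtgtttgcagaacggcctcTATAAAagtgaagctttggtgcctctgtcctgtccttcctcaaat
Myh1, chr10:52384762-52384911, plus strand: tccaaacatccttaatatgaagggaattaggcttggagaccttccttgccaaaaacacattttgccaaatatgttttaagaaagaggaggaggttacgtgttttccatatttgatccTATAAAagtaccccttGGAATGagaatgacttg
Mybpc2, chr1:104154102-104154251, minus strand: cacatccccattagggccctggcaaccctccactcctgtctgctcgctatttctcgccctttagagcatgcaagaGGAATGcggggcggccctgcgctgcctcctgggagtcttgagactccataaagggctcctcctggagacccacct
Ankrd2, chr1:250796269-250796418, plus strand: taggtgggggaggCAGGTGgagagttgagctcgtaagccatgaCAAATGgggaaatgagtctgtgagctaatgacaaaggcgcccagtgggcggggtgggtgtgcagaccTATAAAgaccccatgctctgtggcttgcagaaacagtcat

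Among the promoters of the 14 fast fiber genes found in the RefSeq table, 5 held TATAAA (35.7%), 3 held CATTCC (21.4%) and 8 held CANNTG (57.1%) in the window of 150 bases. Over all 33469 promoters of the table the shares were 8%, 7.4% and 46.6%, and over the 9324 promoters of genes tested here they were 3.95%, 5.38% and 37.8%. Myh4 and Myh1 each held TATAAA, whose first base lay 45 and 33 bases before the start, and Ankrd2 held it at 40 bases. The matches are a description of letters in a short window and were not tested.

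Calcium handling differed mainly in the fast pump. Atp2a1, the calcium pump of fast fibers, ranged from 12350 to 23580 CPM in the diaphragm and from 1160 to 2570 CPM in the soleus, a difference of 3.41 (SE 0.14, adjusted p = 1.39e-16) or 10.6-fold with no overlap. Atp2a2, the pump of slow fibers, was at 9166 to 12410 CPM and 5454 to 19870 CPM, and the difference of 0.22 (SE 0.14, adjusted p = 0.165) was not called. Pvalb, the calcium buffer parvalbumin, had medians of 200 and 37.2 CPM (difference 2.78, SE 0.38, adjusted p = 5.17e-07). Sln, sarcolipin, another pump inhibitor, had medians of 38.6 and 63.8 CPM, and its difference of -0.51 (SE 0.14, adjusted p = 0.00226) was under 1.5-fold; it passed that fold without soleus 9 (-0.61). Of the 18 calcium handling genes measured, 5 were higher in the diaphragm, 3 in the soleus (Trdn, Cacnb1 and Cacng1, parts of the release and channel complexes) and 10 were not called, with a median of 0.37. Over all genes 13.7% and 12.4% were called higher in the diaphragm and in the soleus.

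Transcription factors that mark position along the body differed strongly. Of 39 Hox genes in the list, 25 were in the files and 16 passed the filter on low counts. Hoxa2, Hoxb3, Hoxb4 and Hoxb5 were higher in the diaphragm, 10 genes were higher in the soleus, Hoxa6 (0.05) and Hoxa9 (-0.12) were not called, and the median was -1.30. The 4 genes that were higher in the diaphragm had paralog numbers from 2 to 5, and every gene called with a number from 8 to 11 was higher in the soleus, as were Hoxc4, Hoxc5 and Hoxd4. Hoxb4 was at 11.9 to 17.4 CPM in the diaphragm and 0.681 to 1.70 CPM in the soleus, a difference of 3.57 (SE 0.15, adjusted p = 8.29e-17). Hoxa2 was at 2.96 to 5.61 CPM and 0.155 to 1.34 CPM (2.55, SE 0.22, adjusted p = 1.58e-10). Neither gene overlapped between the muscles.

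Several posterior genes were at or near 0 in the diaphragm. Hoxc10 lay between 43.1 and 60.8 CPM in the soleus and between 0 and 0.432 CPM in the diaphragm, a difference of -8.78 (SE 0.31, adjusted p = 3.38e-18). Hoxc11 had 8933 counts over the soleus libraries (16.2 to 30.9 CPM) and 0 counts over the 12 diaphragm libraries, so it was at least 3612-fold higher in the soleus, taking 3 counts over the group as the floor. Hoxa11 had 958 counts in the soleus and 2 in the diaphragm, a ratio of 581 with a 95% interval of 160 to 4805, which covers counting error only. Within the Hoxc cluster, the difference was -1.48 for Hoxc4, -1.11 for Hoxc5, -3.81 for Hoxc8, -4.52 for Hoxc9 and -8.78 for Hoxc10. Of the 9 Hox genes that were in the files but not tested, Hoxb9 and Hoxc12 were at 0 in every diaphragm library and Hoxd12 in every soleus library, while Hoxb13 was at 0 in all 24.

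**Figure D2:**
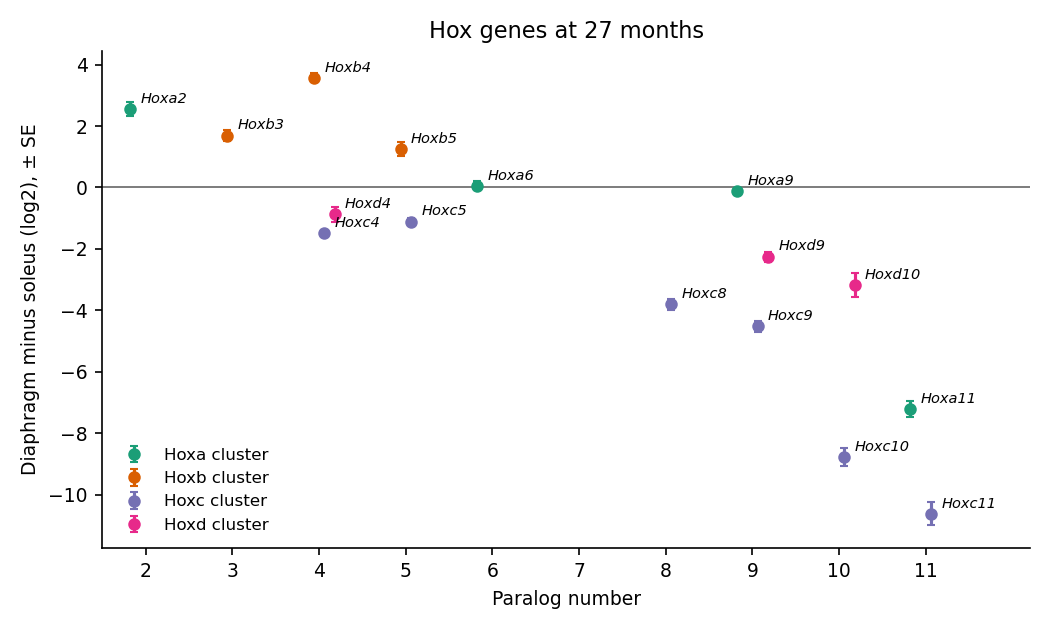
Diaphragm minus soleus difference (log2, bars are the SE) of the 16 Hox genes tested, by paralog number and colored by cluster; values above 0 are higher in the diaphragm. Hoxa2, Hoxb3, Hoxb4 and Hoxb5 lie above 0, and the fitted value of Hoxc11, which had no count in the diaphragm, depends on the prior count.

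The other positional factors split evenly, with 10 of 28 higher in each muscle, beside 13.7% of all genes higher in the diaphragm and 12.4% in the soleus. Tbx4 and Pitx1, which mark the hind limb in the embryo, were both higher in the soleus. Pitx1 was at 0.947 to 4.58 CPM in the soleus and 0 to 0.459 CPM in the diaphragm, a difference of -5.37 (SE 0.53, adjusted p = 2.13e-09), and Tbx4 was at 1.06 to 1.84 and 0 to 0.711 CPM, a difference of -2.71 (SE 0.30, adjusted p = 1.47e-08). Tbx5, the counterpart in the forelimb and heart, fell under the filter; it had 288 counts in the diaphragm and 0 in the soleus, at least 79.1-fold higher in the diaphragm. The diaphragm was higher for Tbx3, a T-box repressor, at 68.8 to 97.7 CPM against 5.33 to 10.6 CPM (3.41, SE 0.09, adjusted p = 4.02e-21), and for Meis2, a Hox cofactor, at 43.9 to 70.2 CPM against 2.95 to 5.35 CPM (3.86, SE 0.10, adjusted p = 4.02e-21). Tbx15, a factor of fast glycolytic fibers, was also higher there (0.85, SE 0.06, adjusted p = 1.504e-12).

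Several of the largest differences of all were in transcription factors outside these lists. Sim1, a helix-loop-helix factor, was at 52.6 to 101 CPM in the soleus and 0 to 0.432 CPM in the diaphragm (-9.46, SE 0.45, adjusted p = 1.30e-15). Its relative Sim2 was at 111 to 153 CPM in the soleus and 1.70 to 19.4 CPM in the diaphragm (-4.60, SE 0.26, adjusted p = 5.32e-14). Pax3, a factor of muscle progenitors, was at 6.51 to 10.3 CPM in the diaphragm and at 0.101 CPM or less in the soleus (8.27, SE 0.31, adjusted p = 1.32e-17). Its paralog Pax7, which marks satellite cells, differed by less than 0.01. Of 17 satellite cell genes, 2 were higher in the diaphragm and 5 in the soleus, beside 13.7% and 12.4% of all genes. The 5 included the myogenic factor Myf5 (-1.43, SE 0.17, adjusted p = 8.05e-08) and the lectin Chodl (-1.48, SE 0.12, adjusted p = 2.93e-11).

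Genes of energy metabolism were higher in the diaphragm in all 4 lists examined, beside 13.7% of all genes called higher there. Among genes of glycolysis and glycogen use 23 of 30 were higher in the diaphragm, with a median of 1.43; among those of the citric acid cycle 14 of 17 (median 0.85), of oxidative phosphorylation 63 of 73 (median 0.84) and of fatty acid use 17 of 30 (median 0.68). None of these genes was called higher in the soleus by limma-voom, and for fatty acid use DESeq2, edgeR, the fit to all ages and the replicate block each called 2 genes higher in the soleus. Fbp2, the muscle fructose bisphosphatase, was at 22.0 to 50.5 CPM in the diaphragm and 0.475 to 3.75 CPM in the soleus (4.48, SE 0.28, adjusted p = 2.65e-13). Gpd1, which moves cytosolic electrons into mitochondria, was at 227 to 455 CPM against 39.5 to 81.0 CPM (2.51, SE 0.12, adjusted p = 7.03e-16). Both had no overlap between the muscles.

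The mitochondrial genes Ndufs8, Idh3a and Acadm had smaller differences than Fbp2 and Gpd1. Ndufs8, a core subunit of complex I, was at 36.6 to 53.9 CPM in the diaphragm and 15.3 to 25.5 CPM in the soleus (1.31, SE 0.08, adjusted p = 3.32e-13). Idh3a, a subunit of isocitrate dehydrogenase, was at 389 to 577 CPM against 163 to 220 CPM (1.24, SE 0.06, adjusted p = 1.30e-15). Acadm, the medium-chain acyl-CoA dehydrogenase, was at 404 to 648 CPM against 101 to 315 CPM (1.55, SE 0.13, adjusted p = 1.40e-10). All 3 ranges were separate, as were those of 52 of the 73 oxidative phosphorylation genes, beside 8.20% of all genes with the diaphragm entirely above. The exceptions at or below 0 were Cox6a2 (-0.12), Cox6a1 (-0.16) and Cox8a (-0.45), none of which was called.

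Of 22 regulators of fiber type and mitochondria, 7 were higher in the diaphragm (beside 13.7% of all genes), none in the soleus and 15 were not called, with a median of 0.31; with total-count scaling 2 were called higher in the soleus. Ppargc1a, the coactivator PGC-1alpha that drives mitochondrial genes, was at 67.8 to 137 CPM in the diaphragm and 29.2 to 55.8 CPM in the soleus (1.27, SE 0.11, adjusted p = 1.12e-10). Esrra, its partner receptor ERRalpha, was at 30.2 to 48.5 CPM against 11.4 to 23.9 CPM (1.20, SE 0.09, adjusted p = 3.07e-11), and Sox6, a repressor of slow fiber genes, at 40.3 to 72.1 CPM against 15.9 to 30.4 CPM (1.37, SE 0.10, adjusted p = 3.66e-12). None of the 3 overlapped. Ppara and Ppard, receptors for fatty acids, and Esrrb and Maf made up the remaining 4, while Tfam and Nrf1, factors of the mitochondrial genome and of respiratory genes, were at -0.01 and -0.15.

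Genes that respond to denervation were higher in the old soleus. Of 22 synapse and denervation genes, 10 were higher in the soleus and 1 in the diaphragm, with a median of -0.58, beside 12.4% of all genes called higher in the soleus. Chrna1, the alpha subunit of the muscle acetylcholine receptor, ranged from 25.4 to 217 CPM in the diaphragm (median 56.5) and from 73.8 to 762 CPM in the soleus (median 452), a difference of -2.68 (SE 0.35, adjusted p = 2.02e-07). Chrng, the gamma subunit of the fetal receptor, ranged from 2.40 to 23.8 CPM against 10.2 to 82.4 CPM (-2.35, SE 0.36, adjusted p = 2.87e-06). Chrnd, the delta subunit, ranged from 44.9 to 146 CPM against 108 to 202 CPM (-0.90, SE 0.16, adjusted p = 2.88e-05). The ranges of the 3 subunits overlapped between the muscles. Ncam1 did not overlap, at 27.5 to 95.5 CPM and 97.2 to 282 CPM (-2.29, SE 0.19, adjusted p = 4.65e-11).

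The remaining members gave the same picture in part. Runx1, a transcription factor induced by denervation, had medians of 23.7 and 167.2 CPM (-2.18, SE 0.37, adjusted p = 1.18e-05), and Colq, Gadd45a, Hdac4, Nes and Myog were higher in the soleus with differences from -1.08 to -1.499. Scn4a, the adult sodium channel of innervated muscle, was the 1 gene of the list that was higher in the diaphragm, at 533 to 824 CPM against 293 to 462 CPM without overlap (0.87, SE 0.07, adjusted p = 5.59e-11). Musk, the receptor kinase that organizes the synapse, was at 0.40 (SE 0.18, adjusted p = 0.0514) and was not called, nor was Chrne, the epsilon subunit of the adult receptor, at -0.28.

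Single libraries stood apart together for these genes. Soleus 9 was the lowest soleus library for Chrna1 (73.8 CPM, the next 342 CPM), Chrng (10.2 and 29.3 CPM), Runx1 (28.5 and 96.5 CPM), Cdkn1a, the cell cycle inhibitor p21 (94.3 and 420 CPM), and Myh3, the embryonic myosin (414 and 1322 CPM). Without soleus 9, left out after the data had been seen, the differences were -2.91 for Chrna1, -2.51 for Chrng, -2.40 for Runx1, -2.03 for Cdkn1a and -4.75 for Myh3. In the diaphragm, libraries 0, 5, 6 and 8 were the 4 highest for Chrna1 (101 to 217 CPM, the others 88.6 CPM or less), Runx1 (64.8 to 94.4 CPM, the others 41.6 CPM or less) and Cdkn1a (291 to 353 CPM, the others 178 CPM or less).

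The windows of the 3 receptor subunits are shown in the same way, because the subunits moved together. They are again 150 bases before the RefSeq start on GRCr8, with matches of the same motifs in capitals.
Chrna1, chr3:78877354-78877503, minus strand: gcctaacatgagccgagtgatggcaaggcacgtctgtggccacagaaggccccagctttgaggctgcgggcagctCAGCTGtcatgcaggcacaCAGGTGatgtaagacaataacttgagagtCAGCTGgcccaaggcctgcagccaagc
Chrng, chr9:95325834-95325983, plus strand: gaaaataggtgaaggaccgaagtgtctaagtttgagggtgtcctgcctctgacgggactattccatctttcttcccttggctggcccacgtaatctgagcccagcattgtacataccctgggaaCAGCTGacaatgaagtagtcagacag
Chrnd, chr9:95310166-95310315, plus strand: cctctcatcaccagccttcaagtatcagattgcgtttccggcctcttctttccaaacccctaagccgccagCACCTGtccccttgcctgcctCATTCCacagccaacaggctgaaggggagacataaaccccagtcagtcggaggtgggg
Chrna1 held CANNTG 3 times and Chrng and Chrnd once each. Of the 17 synapse and denervation genes with a RefSeq promoter 10 (58.8%) held it, beside 46.6% of all promoters of the table and 37.8% of those of genes tested, and the shares were not tested.

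Developmental sarcomere genes were also higher in the soleus. Myh3 ranged from 34.8 to 414 CPM in the diaphragm (median 69.0) and from 414 to 3491 CPM in the soleus (median 2170), so that the highest diaphragm library met the lowest soleus library, and the difference was -4.54 (SE 0.39, adjusted p = 1.63e-10). Actc1, cardiac alpha-actin, which fetal skeletal muscle uses, was at 45.6 to 181 CPM against 222 to 801 CPM (-2.64, SE 0.24, adjusted p = 3.22e-10). Myl4 and Tnnt2, further fetal isoforms, were at -2.45 and -2.33 and were called. Myh8, the perinatal myosin, had the opposite sign, at 17.9 to 58.3 CPM in the diaphragm and 6.10 to 46.7 CPM in the soleus (0.66, SE 0.24, adjusted p = 0.017). That call was lost in DESeq2 (0.56) and edgeR (0.54), with total-count scaling (0.58) and without diaphragm 5 (0.56) or soleus 1 (0.53).

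Among 18 atrophy and stress genes, 9 were higher in the soleus and 1 in the diaphragm, beside 12.4% and 13.7% of all genes. Cdkn1a ranged from 73.3 to 353 CPM in the diaphragm (median 135) and from 94.3 to 1086 CPM in the soleus (median 590), a difference of -1.79 (SE 0.32, adjusted p = 2.22e-05). Ankrd1, a stress-responsive relative of Ankrd2, had medians of 13.9 and 218 CPM (-3.18, SE 0.48, adjusted p = 2.48e-06). Fst, follistatin, which binds myostatin, was at 2.67 to 10.04 CPM in the diaphragm and 16.3 to 44.5 CPM in the soleus (-2.47, SE 0.19, adjusted p = 1.82e-11). Mstn, myostatin, the inhibitor of muscle growth, was the 1 gene higher in the diaphragm, at 2.26 to 5.18 CPM against 0.317 to 1.61 CPM (2.53, SE 0.24, adjusted p = 7.25e-10). Neither of the last pair overlapped between the muscles. The ubiquitin ligases of muscle atrophy, Fbxo32 (0.21) and Trim63 (under 0.01 in size), were not called.

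Extracellular matrix genes were higher in the soleus in 29 of 41 cases and in the diaphragm in 1, with a median of -0.92. Over all genes 12.4% and 13.7% were called higher in the soleus and in the diaphragm. Postn, periostin, a matrix protein of remodeling tissue, was at 14.0 to 56.4 CPM in the diaphragm and 78.7 to 501 CPM in the soleus (-3.34, SE 0.26, adjusted p = 2.65e-11). Col1a1, the main fibrillar collagen chain, was at 83.1 to 346 CPM against 359 to 1209 CPM (-1.86, SE 0.20, adjusted p = 6.95e-09). Both were separate between the muscles. Timp4, a protease inhibitor, was the 1 gene higher in the diaphragm (0.94, SE 0.11, adjusted p = 3.55e-08). Tendon and cartilage markers differed in the same direction at 27 months, with 7 of 8 higher in the soleus and none in the diaphragm. Their summed levels were 27.9 to 466 CPM in the diaphragm and 407 to 718 CPM in the soleus. Tnmd, tenomodulin of tendon cells, was at 0.202 to 11.9 CPM against 13.8 to 21.6 CPM (-2.63, SE 0.36, adjusted p = 4.11e-07). The part of tendon in the matrix result was not tested.

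**Figure D3:**
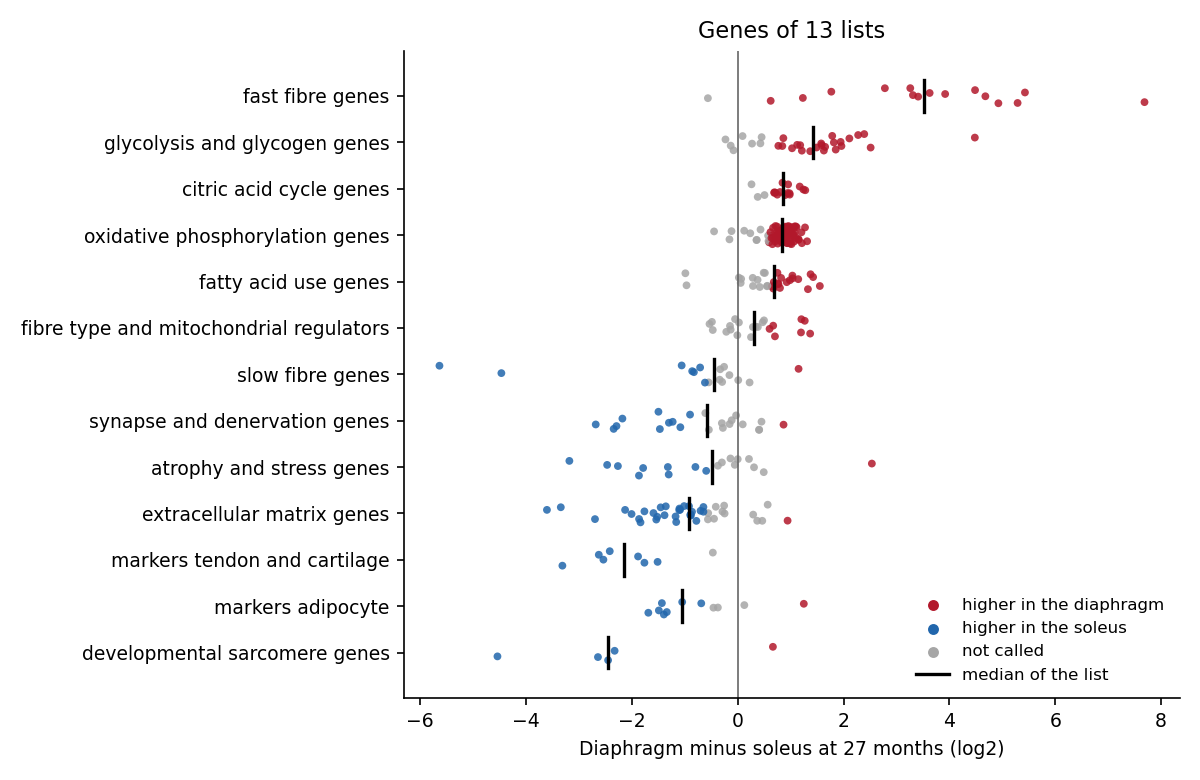
Diaphragm minus soleus difference (log2) at 27 months of every tested gene of 13 lists, 1 point a gene, red where called higher in the diaphragm, blue where called higher in the soleus and gray where not called, with a black bar at the median of the list. Fast fiber genes center on 3.52 and oxidative phosphorylation genes on 0.84, while extracellular matrix genes center on -0.92.

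Markers of other cell types differed too, and their part in the results above was not tested. The counts of these lists stand beside 13.7% of all genes called higher in the diaphragm and 12.4% in the soleus. For mesothelium, the lining of body cavities that covers the diaphragm, 6 of 8 markers were higher there and 1 in the soleus, with summed levels of 20.6 to 191 CPM against 9.46 to 14.3 CPM. Msln, mesothelin, was at 2.68 to 64.3 CPM and 0.0254 to 1.93 CPM (6.05, SE 1.18, adjusted p = 7.54e-05), Wt1 was at 2.56 to 22.8 CPM and 0.0891 CPM or less, and Bnc1 had 3539 counts in the diaphragm and 0 in the soleus, at least 972-fold higher in the diaphragm. Keratin 18 was the exception (Krt18, -0.95, SE 0.35, adjusted p = 0.018). Lymphatic markers were higher in the diaphragm in 4 of 5 cases, with Ccl21, a chemokine of lymphatic vessels, at 135 to 435 CPM against 16.02 to 35.9 CPM (2.91, SE 0.15, adjusted p = 4.83e-15) and Reln at 102 to 332 CPM against 16.3 to 27.2 CPM. Adipocyte markers were higher in the soleus in 7 of 11 cases and in the diaphragm in 1, with summed levels of 142 to 469 CPM and 246 to 643 CPM, which overlap.

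Red cell, neutrophil and mast cell genes were called in the diaphragm. All 6 red cell genes measured were higher there, with summed levels of 483 to 1194 CPM against 193 to 391 CPM, and Hba1, an alpha-globin, was at 256 to 646 CPM against 96.5 to 198 CPM (1.39, SE 0.14, adjusted p = 4.62e-09). All 4 neutrophil genes tested and 5 of 7 mast cell genes were also higher in the diaphragm and none in the soleus. The ranges of each of these genes overlapped between the muscles. Summed levels of the neutrophil list were low, at 4.56 to 9.07 CPM in the diaphragm and 1.44 to 3.74 CPM in the soleus. Those of the mast cell list overlapped, at 37.7 to 238 CPM and 37.8 to 55.4 CPM. Of 9 T cell genes 5 were higher in the diaphragm and 2 in the soleus. The summed level of the list had a median of 11.3 CPM in the diaphragm and 26.1 CPM in the soleus. Cd28 alone, which is in that sum, had medians of 0.942 CPM in the diaphragm and 19.5 CPM in the soleus. The higher sum in the soleus therefore cannot be read as a trait of the whole list. The kinase Zap70 was higher in the diaphragm (2.09, SE 0.45, adjusted p = 2.06e-04), and the surface receptor Cd5 in the soleus (-1.41, SE 0.24, adjusted p = 1.38e-05). Cd28, known as a costimulatory receptor of T cells, was at 0.354 to 1.62 CPM in the diaphragm and 3.94 to 53.9 CPM in the soleus, with a difference of -4.40 (SE 0.57, adjusted p = 2.24e-07) and no overlap. Of 16 macrophage genes 1 was called (Lyve1, which lymphatic vessels also express) and of 8 class II antigen presentation genes none was called, with 0 also in each direction by edgeR and DESeq2. Interferon response genes were higher in the diaphragm in 6 of 33 cases and in the soleus in 3, near the 13.7% and 12.4% of all genes. The median of that list was 0.08.

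A further group of genes called with large differences belongs to none of the lists. Mylk3, a myosin light chain kinase known from the heart, was at 16.5 to 25.9 CPM in the diaphragm and 0.0311 to 2.27 CPM in the soleus (5.77, SE 0.33, adjusted p = 3.92e-14). Atp2b2, a calcium pump of the plasma membrane, was at 31.5 to 63.3 CPM against 0.497 to 1.69 CPM (5.50, SE 0.27, adjusted p = 1.96e-15). Prom2, Gja3, a gap junction protein, and Wnt2b, a secreted Wnt ligand, were at 5.34, 5.33 and 4.74. In the soleus the leading genes were Mettl21c, a lysine methyltransferase of muscle, at 19.7 to 278 CPM against 0.644 to 1.92 CPM (-6.91, SE 0.61, adjusted p = 2.62e-10), and Emb, embigin, a partner of monocarboxylate transporters, at 3.83 to 108 CPM against 0.556 to 1.97 CPM (-5.51, SE 0.82, adjusted p = 1.68e-06). Gnat3, a G protein subunit of taste cells, Ppfia2, a liprin, and Zfp474 followed at -4.52, -4.51 and -4.31. All 10 of these genes were without overlap between the muscles.

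The median gene had an SD of log2 CPM of 0.20 over the 12 soleus libraries and of 0.16 over the 12 diaphragm libraries. In the diaphragm the widest spread was in cartilage and tendon genes. Chad, chondroadherin, ran from 0 CPM in diaphragm 10 to 148 CPM in diaphragm 11, and Kera, keratocan, from 0 to 101 CPM, while in the soleus they kept to 88.3 to 182 CPM and 34.6 to 104 CPM. The difference of Chad was -2.42 (SE 0.81, adjusted p = 0.0114), -1.75 without diaphragm 10, and was not called by DESeq2 (-0.99) or edgeR (-1.003); that of Kera (-2.54, SE 0.67, adjusted p = 0.00171) was not called by DESeq2 (-1.24). In the soleus the widest spread was in Alb, serum albumin, at 2070 CPM in soleus 4, 463 CPM in soleus 7 and 6.67 CPM or less in the other 10 libraries. The fibrinogen chain Fgg, another liver transcript, also reached its highest level of 47.1 CPM in the soleus; its limma-voom difference of 4.07 (SE 0.96, adjusted p = 5.88e-04) turned to -1.16 in edgeR and fell to 1.25 in DESeq2 and 0.77 with the replicate block, none of them called.

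Soleus 9 and soleus 8 were the ends of the main axis of spread in the soleus, which held 36.4% of the variance. Soleus 9 had the lowest level of the 12 for Emb (3.83 CPM), Cd28 (3.94 CPM), Tph1 (3.75 CPM) and Myh1 (61.1 CPM), and soleus 8 the highest for Emb (108 CPM) and Tph1 (295 CPM). Without both, an alternative chosen after the data had been seen, the data gave 1696 genes higher in the diaphragm at 27 months and 1441 genes higher in the soleus at 27 months. Myh6, alpha-cardiac myosin, which in skeletal muscle is found in the fibers of muscle spindles, fell into separate sets in both muscles. In the diaphragm, 5 libraries held 3.70 CPM or less and the other 7 held 92.3 CPM or more, and in the soleus 5 held 35.3 CPM or less and the other 7 held 183 CPM or more. The 5 low libraries bore the numbers 0, 5, 9, 10 and 11 in both muscles. The difference of -1.59 (SE 0.90, adjusted p = 0.123) was not called by limma-voom, and with the replicate number as a block it was -1.23 and called (adjusted p = 7.79e-04).

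**Figure D4:**
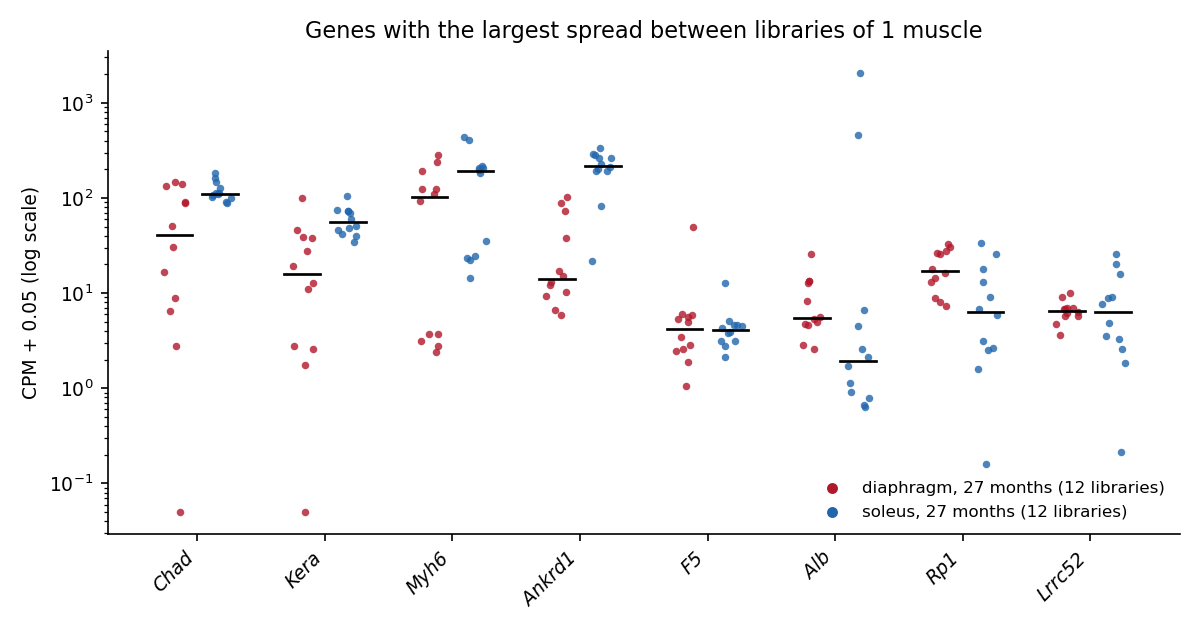
CPM plus 0.05 on a log scale of 8 of the genes with the widest spread between libraries of the diaphragm or the soleus, with 1 point for each of the 12 libraries of a muscle and a bar at the median. Chad and Kera drop to 0 in diaphragm 10, Alb is high in 2 soleus libraries, and Myh6 falls into separate sets in both muscles.

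The same contrast at 6 months shows which of these differences were already there in young adults. In a fit of the 24 libraries of 27 months with the 12 diaphragm and 12 soleus libraries of 6 months, 2635 of 12005 genes were called between the muscles at 6 months and 3220 at 27 months. The same direction was called at both ages for 1774 genes, which is 67.3% of the calls at 6 months and 55.1% of those at 27 months, and opposite directions for 26. The difference between the muscles itself changed between the ages, by the interaction term, for 1256 genes (10.5%), being higher at 27 months for 520 (4.33%) and lower for 736 (6.13%). With total-count scaling these were 318 and 1169, and the share that was higher fell from 41.4% to 21.4%. Higher and lower are meant with the sign, so a lower difference can be a smaller or a larger gap between the muscles. Of the 1256 genes, 116 were called at both ages with a wider gap at 27 months and 112 with a narrower one. A further 492 were called between the muscles only at 27 months and 302 only at 6 months. Muscles of rats of the same age were taken on a single day, so age and collection day cannot be told apart.

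Of the 16 fast fiber genes 9 had a lower difference at 27 months (beside 6.13% of all genes) and none a higher one, with a median difference of 5.62 at 6 months and 3.52 at 27 months. Myh1 in the soleus went from 17.3 to 504 CPM at 6 months (median 67.4) to 59.5 to 2788 CPM at 27 months (median 951), and in the diaphragm its median was 31190 and 23980 CPM. The difference thereby changed by -3.49 (SE 0.69, adjusted p = 9.01e-05). Pvalb in the soleus went from a median of 0.451 to 36.0 CPM (-5.92, SE 1.22, adjusted p = 1.48e-04). Myh7 had soleus medians of 53890 and 34900 CPM and diaphragm medians of 19260 and 23450 CPM (0.91, SE 0.14, adjusted p = 1.26e-06), and Atp2a2 changed in the same way (1.04, SE 0.15, adjusted p = 5.32e-07).

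For part of the mitochondrial genes the difference was higher at 27 months. Of the 73 oxidative phosphorylation genes 24 passed as higher (beside 4.33% of all genes), none as lower and 49 did not pass, and the median went from 0.30 to 0.84. For fatty acid use 14 of 30 were higher and 2 lower, and the median went from 0.03 to 0.68. Bdh1, which oxidizes the ketone body hydroxybutyrate, had soleus medians of 34.8 CPM at 6 months and 5.68 CPM at 27 months, with 39.7 and 42.0 CPM in the diaphragm (2.95, SE 0.25, adjusted p = 5.19e-12). Esrra had soleus medians of 32.3 and 19.1 CPM and diaphragm medians of 47.0 and 42.8 CPM (0.71, SE 0.11, adjusted p = 7.68e-07), a call that was lost with total-count scaling (0.57). Ppargc1a did not pass (0.31, SE 0.14, adjusted p = 0.0780).

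Of the 22 synapse and denervation genes, 8 had a lower difference at 27 months (beside 6.13% of all genes), none a higher one and 14 did not pass. The median of the list went from -0.14 at 6 months to -0.58 at 27 months, further toward the soleus. Among the 41 matrix genes 16 passed as lower, and the median went from -0.34 to -0.92. Ncam1 had medians of 24.9 and 36.1 CPM in the diaphragm at 6 and 27 months and 59.5 and 221 CPM in the soleus (-1.05, SE 0.21, adjusted p = 1.27e-04). Cdkn1a crossed over, with diaphragm medians of 50.6 and 131 CPM and soleus medians of 19.6 and 570 CPM, so that it was higher in the diaphragm at 6 months (1.34) and in the soleus at 27 months (-1.79), a change of -3.13 (SE 0.36, adjusted p = 4.39e-09). Cd28, Emb and Tph1, the enzyme of serotonin synthesis, had soleus medians of 1.49, 3.36 and 2.72 CPM at 6 months and of 18.8, 56.6 and 58.5 CPM at 27 months. The level of Chrng was higher at 27 than at 6 months by 3.70 in the diaphragm and 3.72 in the soleus, on the log2 scale, and the change of its difference was -0.02 (SE 0.93, adjusted p = 0.99). Other genes of this kind were already higher in the soleus at 6 months. In this fit the differences at 6 and 27 months were -3.70 and -4.53 for Myh3, -1.14 and -2.18 for Runx1, and -1.19 and -0.90 for Chrnd. None of these changes was called by limma-voom without the block. The median of the developmental sarcomere genes was -2.42 at 6 months and -2.45 at 27 months.

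Among the 17 Hox genes tested with both ages, 1 passed. This was Hoxc10, its difference of -11.21 at 6 months being -8.78 at 27 months. Its median in the soleus was 75.4 and then 49.5 CPM, and in the diaphragm 0 and 0.0949 CPM, so that the larger part of that change lies in counts near 0. Across all 7 ages, in a fit of all libraries of both muscles, 1201 of 12516 genes were higher in the soleus at 6 months, 1060 to 1185 at the ages from 9 to 24 months and 1571 at 27 months, and 1723, 1605 to 1807 and 1828 were higher in the diaphragm. The difference of Myh7 was -1.45 at 6 months, -1.44 at 18 months, -1.15 at 24 months and -0.55 at 27 months (SE 0.08 each). That of Myh1 was 8.79 at 6 months, 8.26 at 24 months and 5.29 at 27 months (SE 0.51 each). That of Bdh1 was 0.93 at 21 months (SE 0.16), 2.48 at 24 months (SE 0.19) and 3.16 at 27 months (SE 0.20).

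**Figure D5:**
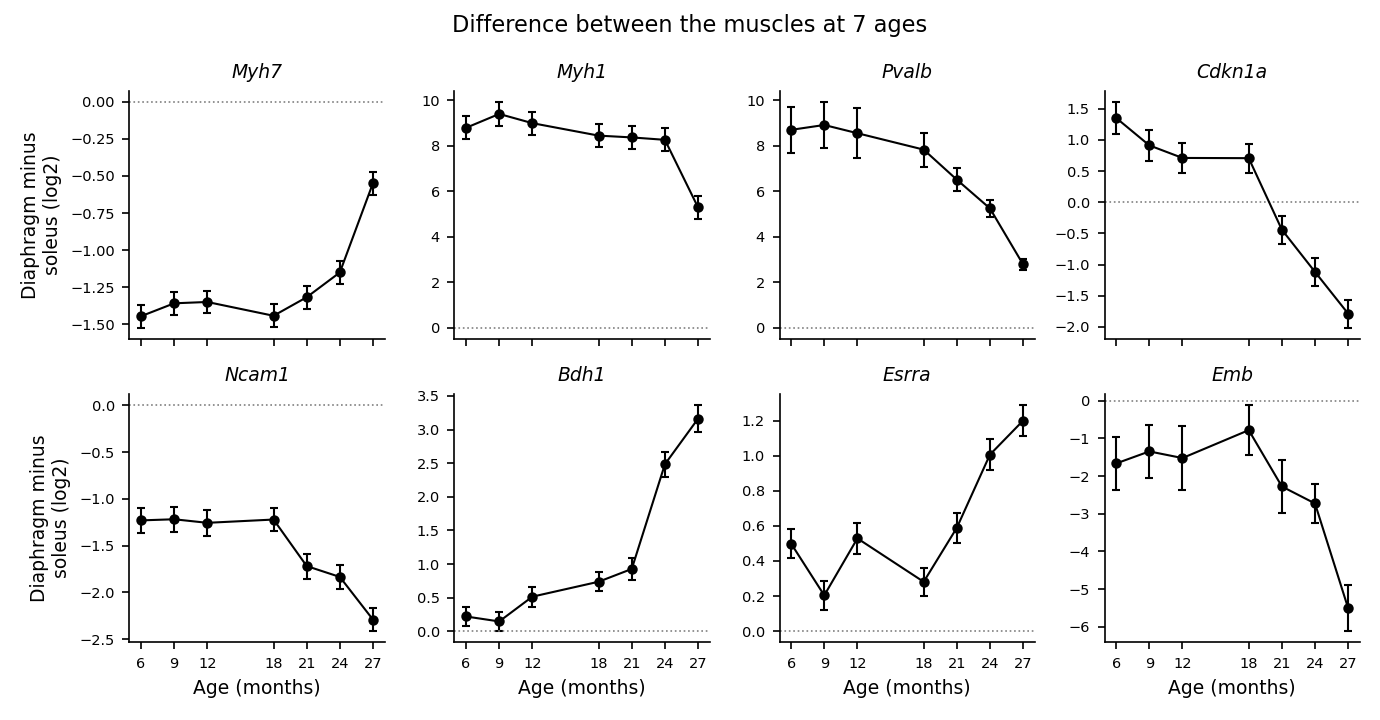
Diaphragm minus soleus difference (log2, bars are the SE of the fit) at the 7 ages for 8 genes, each panel with its own vertical axis and, as a dotted line, no difference. Myh7 lies near -1.45 until 18 months and at -0.55 at 27 months, Cdkn1a passes from above to below 0, and Bdh1 and Esrra are highest at 27 months.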

How the data were processed

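Gene counts of each library were deposited by the authors as raw values without normalization; per the sources used here, rRNA was removed from total RNA, libraries were strand-specific, and reads were aligned and counted in ArrayStudio on a RefSeq-based gene model, whose version was not given. The files hold 17870 gene lines and 17315 symbols, and lines of 1 symbol were summed (494 symbols, of which 242 had identical lines, so their counts may be doubled). Genes with too few counts were removed with filterByExpr (count minimum 10, total minimum 15), libraries were scaled by TMM, and differences were estimated with limma-voom (limma 3.58.1, edgeR 4.0.16, R 4.3.3, prior count 0.5) over the groups compared: 24 libraries at 27 months, 48 for the change from 6 to 27 months. DESeq2 1.42.0, edgeR's quasi-likelihood test and further settings served as alternatives. The tests were checked on simulated counts. P-values measure the spread between libraries, since no label ties a library to a rat.

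The members and gene lists were chosen with earlier results of these data known. Named genes were a panel of fiber, calcium and denervation genes, the 12 largest differences in each direction without overlap, the 2 largest called in each direction of each list, the 6 largest changes of the difference in each direction (all above a mean log2 CPM of 0) and the 5 genes with the largest SD in each muscle (above 2); further list members, Myl1 and those of Cox6a1, Cox6a2, Cox8a, Tfam, Nrf1 and Chrne among them, were chosen after their values were seen. Levels of different genes were not compared, as gene lengths were not used. Promoters are those of RefSeq on GRCr8, while the counts rest on an older build. Ratios for genes with 3 counts or fewer in a group carry 95% intervals for counting error only. Results on some genes are not reported here.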

Additional observations from a re-analysis of the deposited data

Results flagged for a closer look

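The change of the diaphragm minus soleus difference from 6 to 27 months was tested by an interaction term in limma-voom, and 1256 genes passed. Among named genes with a higher difference at 27 months were Alb (4.30), Car12, a carbonic anhydrase (3.50), Bdh1 (2.95), the clock gene Ciart (2.46), Hoxc10 (2.43), the pacemaker channel Hcn4 (2.26), Atp2a2 (1.04), Myh7 (0.91) and Esrra (0.71), all on the log2 scale. Car12 had soleus medians of 1.98 CPM at 6 months and 0.242 CPM at 27 months, with 1.59 and 1.87 CPM in the diaphragm. Ciart had diaphragm medians of 0.679 and 13.4 CPM and soleus medians of 2.18 and 5.89 CPM. Hcn4 had soleus medians of 24.2 and 10.8 CPM and diaphragm medians of 1.06 and 2.48 CPM. Alb in the soleus ran from 4.34 to 1378 CPM at 6 months (median 90.5 CPM) and from 0.573 to 1992 CPM at 27 months (median 1.80 CPM). Its change was near 0 in DESeq2 and edgeR.

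Named genes with a lower difference at 27 months were Pvalb (-5.92), the motor protein Myo5b (-4.34), Cd28 (-3.97), the calmodulin-like gene Calml3 (-3.95), Emb (-3.83), Tph1 (-3.82), Myh1 (-3.49), Cdkn1a (-3.13), Ncam1 (-1.05), Sln (-1.02), Atp2a1 (-0.86) and Musk (-0.85). Myo5b had soleus medians of 0.872 CPM at 6 months and 25.7 CPM at 27 months, with 7.04 and 5.78 CPM in the diaphragm. Calml3 had soleus medians of 1.21 and 9.51 CPM and diaphragm medians of 3.31 and 0.829 CPM. Sln had soleus medians of 12.6 and 61.9 CPM and diaphragm medians of 17.1 and 37.7 CPM. Musk had 4.17 and 14.2 CPM in the soleus and 11.2 and 19.2 CPM in the diaphragm.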

How the results depend on the processing

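With Bonferroni adjustment 1152 and 929 genes were higher in the diaphragm and in the soleus at 27 months, and 748 and 618 at 2-fold. For the change from 6 to 27 months Bonferroni left 296 higher and 197 lower, the 2-fold threshold 179 and 302, and total-count scaling 318 and 1169. Other counts stayed within 1.5 times those reported. Leaving out 1 library at a time, chosen after the data had been seen, gave 1591 to 1679 genes higher in the diaphragm, 1419 to 1525 in the soleus, and for the change 465 to 583 higher and 662 to 816 lower, the extremes of the change without soleus 8 and soleus 9. Same-numbered libraries correlated at -0.22 to 0.35, 6 of 12 above 0.1, and 3 correlated best with their own number, so the fit without the block was kept. These correlations cannot show that the numbers do not mark rats. The low libraries of 3 genes at 27 months and of 4 genes at 6 months bore the same numbers in both muscles (below). Whether numbers mark rats is not known, and the SEs and p-values of the main fit take no account of such a pairing. Among named genes the replicate block added the call of Myh6 and took those of Fgg and Hey1 at 27 months, and for the change it added Myh3, Myh4 and Runx1 and took Alb. It gave 1576 and 1482 genes at 27 months and 520 and 782 for the change.

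Reversed at 27 months were Alb (-2.21 in DESeq2, -4.61 in edgeR, -1.95 with the replicate block), Fgg (-1.16 in edgeR), F5 (-0.23 in DESeq2, -0.13 with sample weights, -0.097 with total-count scaling) and Lrrc52 (-0.38 in DESeq2, -0.39 in edgeR, -0.22 with the replicate block). With single libraries left out F5 ranged from -0.22 to 0.15 and Lrrc52 from -0.026 to 0.65. Among changes from 6 to 27 months the reversed ones were those of Alb (-0.013 in DESeq2, -0.052 in edgeR), Chrng (0.20, 0.17, 0.014 without filter and 0.071 with the replicate block), Hoxb5 (-0.0047, -0.013, -0.047 with the replicate block, -0.073 with sample weights and -0.076 with total-count scaling), Myh2 (0.036 and 0.027), Pitx1 (0.17 and 0.15) and Tbx5 (-0.087 with total-count scaling); leaving out single libraries gave -0.21 to 0.13 for Chrng, -0.040 to 0.16 for Hoxb5 and -0.072 to 0.21 for Tbx5. The cause was not tested. Of these only Alb (change) and Fgg were called in limma-voom. Etv1, Hey1, Parp9, Zbp1 and Myh8 lost their call without some single library.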

Other observations

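Lists with fewer calls are given here as values, beside 13.7% of all genes called higher in the diaphragm and 12.4% in the soleus. Of 15 clock genes 1 was higher in the diaphragm (Ciart, 0.96, SE 0.23, adjusted p = 7.87e-04 by limma-voom) and 1 in the soleus (Clock, -0.67, SE 0.10, adjusted p = 2.10e-06). Among Schwann cell genes 6 of 13 were higher in the diaphragm and 3 in the soleus, where the myelin gene Cnp was at 52.5 to 185 CPM against 15.8 to 30.0 CPM in the diaphragm (-2.42, SE 0.16, adjusted p = 1.38e-12). Of 16 endothelial genes 2 were higher in the diaphragm and 1 in the soleus, with Kdr, the main receptor for vascular endothelial growth factor, at 118 to 186 CPM against 49.7 to 80.7 CPM (1.15, SE 0.08, adjusted p = 1.76e-12). Smooth muscle genes were higher in the diaphragm in 3 of 13 cases and in the soleus in 1, with Lmod1, leiomodin, at 42.8 to 182 CPM against 4.70 to 7.24 CPM (4.14, SE 0.26, adjusted p = 4.18e-13). Of 9 fibroblast genes 1 was higher in the diaphragm and 2 in the soleus, and of 5 spindle genes none and 2. Of 4 liver genes tested 1 was called, Fgg, as higher in the diaphragm, although it had 824 counts there and 1417 in the soleus. The summed level of the liver list reached 38.7 CPM in the diaphragm (median 11.1 CPM) and 2922 CPM in the soleus (median 4.18 CPM). The 1 B cell gene measured was higher in the diaphragm.

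Some genes fell into separate sets of libraries. Counting a gap of at least 2-fold with 3 or more libraries on each side and at least 2 CPM in the higher set, a rule chosen after the values had been seen, 18 genes split in the diaphragm at 27 months, 16 in the soleus and 5 in both. For 3 of the 5, Myh6, RT1-Ba and RT1-Bb, the low libraries bore the same numbers in both muscles. RT1-Ba and RT1-Bb, class II antigen presentation genes, were low in numbers 0, 1, 2, 4, 6, 8 and 10: RT1-Ba was at 4.37 CPM or less against 12.5 CPM or more in the diaphragm and at 5.89 or less against 13.8 or more in the soleus. Cers1 and Gdf1, which overlap in the genome, were the other 2, with different numbers. At 6 months 7 genes split in both muscles, 4 of them (Cd1d1, Myh6, Serhl2 and Ybx1-ps3) with the same numbers.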
